A study of Mus musculus with 27 samples.

Results

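Interferon-stimulated genes are the genes that cells switch on when an interferon binds its receptor. The set examined here held 39 of them, taken by gene symbol from a list of known members, and all 39 matched a row among the 51906 gene rows of the RNA-seq table. In the single-cell matrices 37 of the 39 matched one of 32285 genes, and Mx1 and Mx2 were not matched there by symbol. The list was drawn up by symbol, with earlier results of these data known.

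The study asked how retinoids act on hair follicle stem cells (HFSCs), the keratinocyte stem cells of the follicle bulge, and whether cultures can be steered toward hair lineages. Bulk RNA-seq covered 8 libraries of HFSCs from telogen skin (P55, the resting phase of the hair cycle), with 2 mice for each genotype and the cells of each mouse grown in both media. Single-cell RNA-seq covered back skin of 2 wild-type mice in full anagen (AnaVI, P32, the growth phase) and HFSC cultures from 2 mice, in which 7 hashtag antibodies marked the culture conditions. The 2 media of the bulk libraries were medium with fetal bovine serum (FBS) and medium with all-trans retinoic acid and a protein kinase C inhibitor (atRA+PKCi), in which the B-27 supplement stood in for serum. The genotypes were wild-type and Rxra cKO, that is, Sox9-CreER;Rxra-fl/fl;Rosa26-YFP mice on a C57BL/6 background, in which Cre is driven by Sox9 and acts after tamoxifen. The sources used here give no strain for the wild-type donors of these libraries, so strain, line and genotype cannot be told apart. All lines were established on mitomycin-inactivated feeder cells and donors of both sexes were used, and serum, B-27 and the 2 compounds changed together between the media.

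Type I interferons signal through IFNAR1 and IFNAR2, type II interferon through IFNGR1 and IFNGR2, and both use JAK kinases to phosphorylate STAT proteins. A complex that holds STAT2 and IRF9 binds the interferon-stimulated response element (ISRE), whereas type II interferon acts largely through the gamma-activated site (GAS). The induced genes encode sensors of foreign RNA, enzymes and membrane proteins that block viruses, GTPases that attack intracellular parasites, chemokines and the machinery that loads peptides on MHC class I.

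RefSeq promoter windows of the mouse build GRCm38, running from 250 bases before to 50 bases after each start, were found for 30 of the 39 members. The ISRE core, spelled as 2 copies of GAAA with any 2 bases between them and read on both strands, was present in 17 of the 30 (56.7%), beside 1079 of all 27025 genes with a window (3.99%). The GAS core, spelled TTCNNNGAA and the same on both strands, was present in 8 of the 30 (26.7%), beside 2582 of the 27025 genes (9.55%). The 150 bases before the start follow for members whose values the results turn on, 5′ to 3′ on the gene's strand, with the bases of these cores in capitals. Isg15 (chr4:156200819-156200968, minus strand) has 3 overlapping ISRE cores. Bst2 (chr8:71537473-71537622, minus strand) has 1 GAS core that runs into 2 overlapping ISRE cores. Gbp2 (chr3:142620513-142620662, plus strand) has 1 ISRE core on the opposite strand, Igtp (chr11:58199406-58199555, plus strand) has 1 of each core, and Irf1 (chr11:53769864-53770013, plus strand) has 1 GAS core.
Isg15: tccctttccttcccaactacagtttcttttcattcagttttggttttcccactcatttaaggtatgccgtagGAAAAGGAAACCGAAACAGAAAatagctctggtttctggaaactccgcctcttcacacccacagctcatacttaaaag
Bst2: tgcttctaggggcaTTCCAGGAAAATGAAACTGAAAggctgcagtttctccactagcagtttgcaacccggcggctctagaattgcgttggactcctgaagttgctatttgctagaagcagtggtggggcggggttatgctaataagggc
Gbp2: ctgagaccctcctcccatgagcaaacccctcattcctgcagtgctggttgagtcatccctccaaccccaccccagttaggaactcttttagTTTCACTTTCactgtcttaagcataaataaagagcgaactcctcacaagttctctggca
Igtp: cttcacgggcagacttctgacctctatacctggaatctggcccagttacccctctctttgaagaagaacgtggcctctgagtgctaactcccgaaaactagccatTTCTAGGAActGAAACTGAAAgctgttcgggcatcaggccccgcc
Irf1: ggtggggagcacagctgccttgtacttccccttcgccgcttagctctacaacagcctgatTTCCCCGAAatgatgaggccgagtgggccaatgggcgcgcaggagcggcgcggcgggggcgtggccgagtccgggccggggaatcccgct
These matches describe letters in a window and not a bound factor. The windows of Tap1 and Psmb9, 2 members that rose with the medium, held neither core.

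The 8 bulk libraries held 25150265 to 35879777 estimated counts each. Rxra, the targeted gene, stood at 149 and 122 CPM (counts scaled to library size) in the wild-type FBS libraries and at 97.2 and 95.7 in the libraries labelled Rxra cKO in FBS. In atRA+PKCi it stood at 147 and 143 CPM in wild-type and at 148 and 145 CPM in the libraries labelled cKO, so the transcript was not lower there. The gene-level count covers exons outside the floxed part, so it does not test the deletion, and the genotype is given below as labelled. Krt5 and Krt14, keratins of basal keratinocytes, were high in all 8 libraries, and Krt15, a bulge marker, was at 4576 and 4430 CPM in wild-type atRA+PKCi and at 251 and 245 CPM in cKO-labelled atRA+PKCi. None of 8 immune markers was expressed enough to be tested, and their sum was at most 0.396 CPM in a library. The sum of 8 fibroblast markers was 11.9 and 7.88 CPM in wild-type FBS libraries, 1.31 and 4.43 in wild-type atRA+PKCi, 6.26 and 8.78 in cKO-labelled FBS and 4.66 and 5.59 in cKO-labelled atRA+PKCi. It was lowest in wild-type atRA+PKCi, Lum was at 0 in all 8 libraries, and the part of these cells in the results was not tested. In bulk libraries fewer cells of a kind and less RNA per cell cannot be told apart.

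The members were low in these keratinocytes. Summed over all 39, they came to 76.9 and 68.8 CPM in wild-type FBS, 134 and 136 CPM in wild-type atRA+PKCi, 134 and 131 CPM in cKO-labelled FBS, and 193 and 201 CPM in cKO-labelled atRA+PKCi. The sum was lowest in wild-type FBS, highest in cKO-labelled atRA+PKCi, and overlapped in the other two groups. Irf1, Ifi35, Ddx58, Tap1 and Bst2 gave the most counts, and without these 5 the sum was 28.0 and 25.8, 42.7 and 45.8, 50.1 and 51.4, and 72.5 and 76.3 CPM in the same order. The quasi-likelihood test of edgeR, adjusted by the Benjamini-Hochberg method over 15965 genes and called at an adjusted p under 0.05, covered 32 of the 39. The other 7 (Ifit3b, Oas2, Rsad2, Rtp4, Cxcl9, Cxcl10 and Iigp1) had at most 12 counts in a library.

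**Figure D1:**
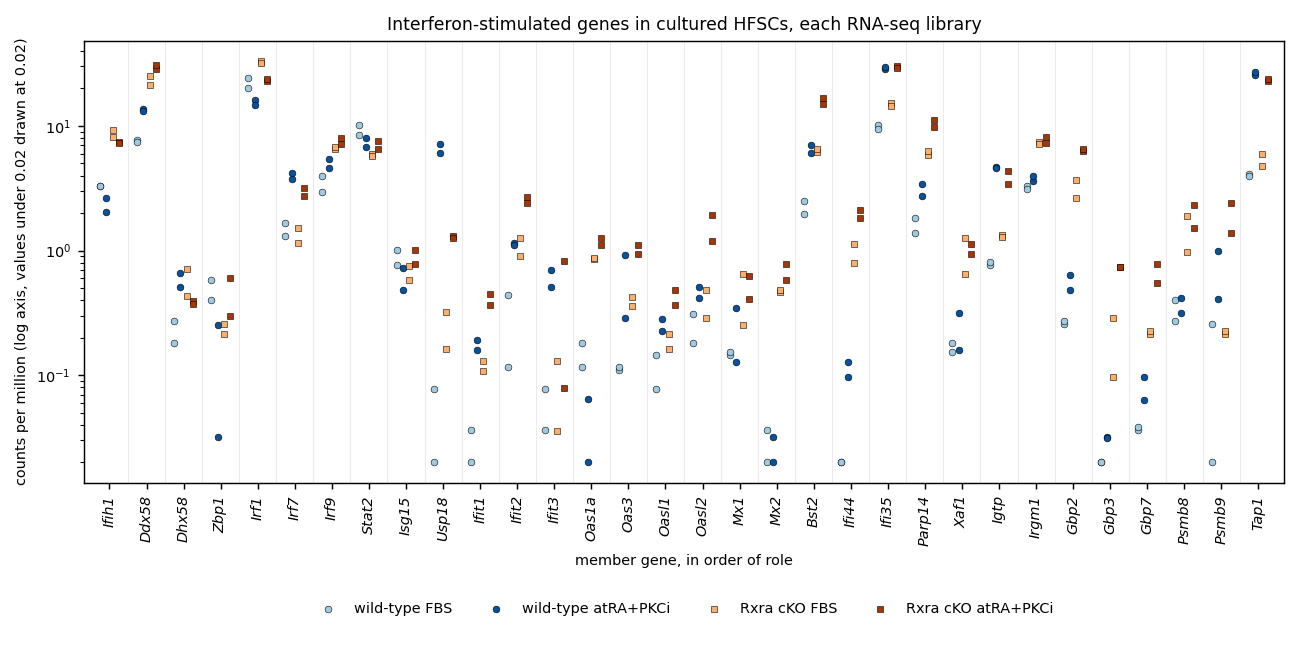
Level of each of the 32 tested members in the 8 bulk libraries, in CPM on a log axis, with values under 0.02 drawn at 0.02. Each point is 1 library, circles are wild-type and squares cKO-labelled, and pale and dark colors are FBS and atRA+PKCi. Gbp2 and Parp14 have both cKO-labelled groups above both wild-type groups, whereas Tap1 and Igtp have both atRA+PKCi groups above both FBS groups.

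Between the labelled genotypes, more members were higher than lower in the cKO-labelled cultures, in both media. In FBS 20 of the 39 were higher and 1 (Stat2) lower, where 22.3% of all tested genes lay above and 20.5% below. With atRA+PKCi 17 of the 39 were higher and 1 (Usp18) lower, where 23% and 20.2% of all tested genes were. The median difference over all 39 with no filter on counts was 1.48 on the log2 scale in FBS and 1.19 in atRA+PKCi, beside a median of 0 over all genes. The 16 members called higher in both media were Ifih1, Ddx58, Irf1, Irf9, Ifit2, Oas1a, Mx2, Bst2, Ifi44, Parp14, Xaf1, Irgm1, Gbp2, Gbp3, Gbp7 and Psmb8. The same cultures enter the comparisons of media and of genotypes, so these are not independent counts.

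Among the sensors, Ddx58 encodes RIG-I, which detects viral RNA with a 5′ triphosphate. Its level was 7.66 and 7.38 CPM in wild-type FBS libraries, 13.7 and 13.2 in wild-type atRA+PKCi, 25 and 21.4 in cKO-labelled FBS and 28.6 and 31 in cKO-labelled atRA+PKCi, with no overlap between the 4 groups. The genotype difference was 1.62 ± 0.11 (SE, n = 2 against 2) on the log2 scale in FBS (edgeR adjusted p = 8.6e-06) and 1.15 ± 0.10 in atRA+PKCi (adjusted p = 3e-05). Ifih1, which encodes the long-RNA sensor MDA5, was at 3.32 and 3.28, 2.63 and 2.03, 9.24 and 8.13, and 7.41 and 7.34 CPM in the same order. It was therefore higher in the cKO-labelled cultures by 1.39 ± 0.16 in FBS (adjusted p = 0.00021) and 1.66 ± 0.17 in atRA+PKCi (adjusted p = 7.4e-05), both log2. Dhx58, the regulator LGP2, reached at most 0.713 CPM and was called once, higher by 1.37 ± 0.48 with the medium in wild-type (adjusted p = 0.04). That call ended with the replicate block (adjusted p = 0.067) and without any 1 wild-type library (adjusted p = 0.071 to 0.183). Zbp1, a sensor of Z-form nucleic acid, ranged from 0.0321 to 0.602 CPM and was called in no comparison.

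The transcription factors of the pathway did not move as 1 group. Irf1, an early interferon target and itself an activator, was at 24.3 and 20.2 CPM in wild-type FBS libraries, 16.2 and 14.7 in wild-type atRA+PKCi, 33.3 and 31.9 in cKO-labelled FBS and 23.1 and 23.9 in cKO-labelled atRA+PKCi. Both atRA+PKCi groups were below the FBS group of their genotype, and Irf1 was the only member called lower with the medium in both genotypes, by −0.53 ± 0.10 in wild-type (adjusted p = 0.0025) and −0.47 ± 0.10 in cKO-labelled cultures (adjusted p = 0.0053, and 0.055 without the first cKO-labelled atRA+PKCi library). By genotype it was higher by 0.55 ± 0.10 in FBS (adjusted p = 0.0026) and 0.61 ± 0.10 in atRA+PKCi (adjusted p = 0.0016). Irf7, the factor that amplifies type I interferon, went the other way with the medium. Its levels of 1.31 and 1.66 CPM in wild-type FBS and 1.15 and 1.52 in cKO-labelled FBS compared with 4.2 and 3.74 and with 3.2 and 2.72 in atRA+PKCi, differences of 1.42 ± 0.24 (adjusted p = 0.0011) and 1.14 ± 0.24 (adjusted p = 0.0051). No genotype difference was called for Irf7.

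The remaining 2 factors belong to the complex that binds the ISRE. Irf9 was at 3.94 and 2.94, 4.55 and 5.39, 6.51 and 6.83, and 7.96 and 7.19 CPM in the order wild-type FBS, wild-type atRA+PKCi, cKO-labelled FBS and cKO-labelled atRA+PKCi. It was higher in the cKO-labelled cultures by 0.95 ± 0.18 in FBS (adjusted p = 0.0027) and by 0.61 ± 0.17 in atRA+PKCi (adjusted p = 0.019). The medium difference of Irf9 in wild-type, 0.53 ± 0.18 (adjusted p = 0.034), was lost with the mouse as a replicate block (adjusted p = 0.061), and it was 0.33 without the second wild-type FBS library (adjusted p = 0.187). The genotype call of Irf9 in atRA+PKCi ended without the first wild-type library of that medium (adjusted p = 0.078) or either cKO-labelled one (0.104 and 0.054). Stat2, the partner of Irf9, was at 10.1 and 8.46 CPM in wild-type FBS and at 5.97 and 5.7 in cKO-labelled FBS, lower by −0.67 ± 0.15 (adjusted p = 0.0069). In atRA+PKCi Stat2 was at 6.8 and 8.05 CPM in wild-type and 6.55 and 7.52 in cKO-labelled cultures, and these ranges overlapped.

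Isg15, a ubiquitin-like protein attached to other proteins during the response, is among the genes most used to read interferon activity, and it was called in no comparison. Its level was 0.766 and 1 CPM in wild-type FBS libraries, 0.481 and 0.729 in wild-type atRA+PKCi, 0.755 and 0.583 in cKO-labelled FBS and 0.786 and 1.01 in cKO-labelled atRA+PKCi, and the wild-type FBS range overlapped that of cKO-labelled atRA+PKCi. The 3 ISRE cores of its promoter are printed above. Usp18, the protease that removes ISG15 and damps signaling at IFNAR2, had the largest difference of any tested member between the media. The wild-type libraries held 2 counts of it in FBS (0 and 0.0773 CPM) and 417 in atRA+PKCi (6.06 and 7.22 CPM), a 177-fold difference (95% interval from counting error 48.7 to 1467). In the cKO-labelled cultures Usp18 was at 0.324 and 0.162 CPM in FBS and at 1.31 and 1.27 CPM in atRA+PKCi, a difference of 2.41 ± 0.44 (adjusted p = 0.0026). It was thus the only member called lower in the cKO-labelled cultures in atRA+PKCi, by −2.36 ± 0.34 (adjusted p = 0.00066).

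In the IFIT family, whose proteins bind foreign 5′ ends of RNA, Ifit2 was called higher in all 4 comparisons. It was at 0.438 and 0.116 CPM in wild-type FBS libraries, 1.15 and 1.11 in wild-type atRA+PKCi, 0.899 and 1.26 in cKO-labelled FBS and 2.41 and 2.68 in cKO-labelled atRA+PKCi. Its differences were 2.00 ± 0.48 and 1.23 ± 0.40 with the medium (adjusted p = 0.0075 in wild-type and 0.035 in cKO-labelled cultures). By genotype they were 1.94 ± 0.49 in FBS (adjusted p = 0.012) and 1.16 ± 0.39 in atRA+PKCi (adjusted p = 0.041, and 0.055 with the replicate number as a block). Without the first wild-type FBS library the 2 differences against wild-type FBS were 3.24 and 3.18. The FBS genotype call ended without the second cKO-labelled FBS library (adjusted p = 0.07), and the cKO-labelled medium call and the atRA+PKCi genotype call ended without any 1 library they compare (adjusted p = 0.075 to 0.161 and 0.096 to 0.161). Ifit1 and Ifit3 reached at most 0.82 CPM and were called higher with the medium in wild-type, calls that ended without the second wild-type FBS library (adjusted p = 0.165 and 0.092) or either wild-type atRA+PKCi library (0.08 and 0.111 for Ifit1, 0.063 and 0.111 for Ifit3). The Ifit3 call also ended without the first wild-type FBS library (adjusted p = 0.148). Ifit1 had 1 count in wild-type FBS against 11 in atRA+PKCi, a ratio of 9.34 (95% interval 1.36 to 402), and Ifit3 had 3 against 38, a ratio of 10.8 (3.41 to 54.5). Ifit3b had 0 counts in wild-type FBS and at most 5 in any other library.

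The OAS genes encode synthetases of 2′-5′ oligoadenylate, or proteins like them, and the calls differed from gene to gene. Oas1a was at 0.182 and 0.116 CPM in wild-type FBS libraries, 0.0641 and 0 in wild-type atRA+PKCi, and at 0.863 and 0.874 and 1.26 and 1.12 in the cKO-labelled cultures. It was higher by genotype by 2.50 ± 0.56 in FBS (adjusted p = 0.0069), and in atRA+PKCi 2 counts compared with 78, a ratio of 37.6 (95% interval 10.1 to 316). Oas3, at 0.109 to 1.1 CPM, was called with the medium in wild-type (2.38 ± 0.67, adjusted p = 0.015). It was 1.32 and not called without the second wild-type atRA+PKCi library (adjusted p = 0.144), nor was it called without either wild-type FBS library (0.065 and 0.057). Oasl2 was called in the cKO-labelled cultures with the medium (1.99 ± 0.43, adjusted p = 0.006) and by genotype in atRA+PKCi (1.75 ± 0.42, adjusted p = 0.0095), where it reached 1.91 and 1.19 CPM, and both calls ended without the first of those 2 libraries (adjusted p = 0.068 and 0.103). Oasl1 was at 0.0773 to 0.484 CPM and was called nowhere, and Oas2 had at most 2 counts in a group.

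Several effectors that act on viruses showed the genotype difference clearly. Bst2, also known as tetherin, holds budding virions on the cell surface. It was at 2.52 and 1.97 CPM in wild-type FBS libraries, 6.99 and 6.02 in wild-type atRA+PKCi, 6.15 and 6.51 in cKO-labelled FBS and 15.1 and 16.9 in cKO-labelled atRA+PKCi. It rose with the medium by 1.53 ± 0.16 in wild-type (adjusted p = 6.8e-05) and 1.33 ± 0.14 in cKO-labelled cultures (adjusted p = 0.00013), and the genotype differences were 1.49 ± 0.16 in FBS (adjusted p = 0.00015) and 1.29 ± 0.14 in atRA+PKCi (adjusted p = 0.00013). Parp14, an ADP-ribosyltransferase, was at 1.39 and 1.82, 3.4 and 2.76, 5.86 and 6.35, and 9.85 and 11.1 CPM in the same order. Its 4 differences were 0.94 ± 0.20 and 0.77 ± 0.17 with the medium and 1.93 ± 0.19 and 1.76 ± 0.18 by genotype (edgeR adjusted p = 0.0035, 0.006, 8.5e-05 and 7.3e-05), of which the second ended without the second cKO-labelled atRA+PKCi library (adjusted p = 0.058).

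Ifi44 was listed at 0 in wild-type FBS, in both libraries, and at 0.0962 and 0.127 CPM in wild-type atRA+PKCi. In the cKO-labelled cultures it was at 0.791 and 1.13 CPM in FBS and 1.83 and 2.12 CPM in atRA+PKCi. In FBS, 57 counts against 0 put the cKO-labelled cultures at least 17.3-fold higher, taking 3 counts over the group as the floor, and in atRA+PKCi the difference was 4.10 ± 0.44 (adjusted p = 0.0002). Mx2, a dynamin-like GTPase, had 1 count in wild-type FBS against 28 (ratio 25.4, 95% interval 4.2 to 1040) and 1 in wild-type atRA+PKCi against 43 (ratio 41.5, interval 7.06 to 1676). Its relative Mx1, at 0.128 to 0.648 CPM, was called nowhere. Xaf1, which binds the apoptosis inhibitor XIAP, was at 0.155 to 0.317 CPM in the wild-type libraries and at 0.647 to 1.26 in those labelled cKO, higher by 2.48 ± 0.54 in FBS (adjusted p = 0.0059) and 2.09 ± 0.49 in atRA+PKCi (adjusted p = 0.0085, but 0.052 without the first wild-type and 0.055 without the first cKO-labelled library of that medium). Rsad2, the antiviral enzyme viperin, was not tested but had 0 counts in wild-type FBS against 17, at least 5.15-fold higher in the cKO-labelled cultures. Rtp4 had at most 5 counts in a library.

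The GTPases act on the vacuoles of intracellular parasites. Gbp2, a guanylate-binding protein, had the largest genotype difference in FBS among members with at least 1 CPM on average. It was at 0.255 and 0.27 CPM in wild-type FBS libraries, 0.481 and 0.634 in wild-type atRA+PKCi, 2.66 and 3.66 in cKO-labelled FBS and 6.31 and 6.56 in cKO-labelled atRA+PKCi. The genotype differences were 3.57 ± 0.30 in FBS (adjusted p = 3e-05) and 3.52 ± 0.26 in atRA+PKCi (adjusted p = 1.2e-05), and the medium differences 1.07 ± 0.34 (adjusted p = 0.027) and 1.02 ± 0.22 (adjusted p = 0.0057). The first of these ended without either wild-type FBS library (adjusted p = 0.107 and 0.078) or the second wild-type atRA+PKCi library (0.181). Gbp3 had 0 counts in wild-type FBS against 11, at least 3.33-fold higher in the cKO-labelled cultures, and 2 against 48 in atRA+PKCi (ratio 23.2, 95% interval 6.07 to 197). Gbp7 had 2 counts against 13 in FBS (ratio 5.9, interval 1.34 to 53.9) and was higher by 2.98 ± 0.56 in atRA+PKCi (adjusted p = 0.0027). In FBS the Gbp3 call ended without either wild-type library (adjusted p = 0.061 and 0.053) or the first cKO-labelled one (0.08), and the Gbp7 call without any 1 of the 4 (0.086 to 0.124).

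The immunity-related GTPases split by comparison. Irgm1 differed by genotype and not with the medium, with 3.28 and 3.13 CPM in wild-type FBS libraries, 3.59 and 3.96 in wild-type atRA+PKCi, 7.37 and 7.19 in cKO-labelled FBS and 7.25 and 8.16 in cKO-labelled atRA+PKCi. Its genotype differences were 1.18 ± 0.14 (adjusted p = 0.00026) and 1.03 ± 0.14 (adjusted p = 0.00046). Igtp moved mainly with the medium. It was at 0.766 and 0.811 CPM in wild-type FBS against 4.65 and 4.56 in wild-type atRA+PKCi (2.54 ± 0.22, adjusted p = 2e-05), and at 1.33 and 1.3 against 3.43 and 4.32 in the cKO-labelled cultures (1.55 ± 0.21, adjusted p = 0.00045). Iigp1 had at most 3 counts in a group.

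Of the 3 members of antigen processing, Tap1, a subunit of the peptide transporter, had the smallest adjusted p for the medium in both genotypes. It was at 4.12 and 3.94 CPM in wild-type FBS libraries, 25.4 and 27.2 in wild-type atRA+PKCi, 4.75 and 5.96 in cKO-labelled FBS and 22.9 and 23.8 in cKO-labelled atRA+PKCi. The medium differences were 2.70 ± 0.12 (adjusted p = 3.4e-07) and 2.12 ± 0.12 (adjusted p = 2.8e-06). Psmb9, an immunoproteasome subunit whose gene neighbors Tap1, was called with the medium in both genotypes (2.39 ± 0.89, adjusted p = 0.048, and 3.07 ± 0.76, adjusted p = 0.011) at 0 to 2.42 CPM. In wild-type it was 1.44 without the second FBS library (adjusted p = 0.139) and 1.61 without the first atRA+PKCi library (0.232), neither of them called. In the cKO-labelled cultures the call ended without either FBS library (adjusted p = 0.067 and 0.072) or the second atRA+PKCi library (0.075). Psmb8, the next subunit, was called by genotype instead, at 0.27 to 0.417 CPM in the wild-type libraries and 0.972 to 2.3 in those labelled cKO (2.07 ± 0.47 in FBS, adjusted p = 0.0069 but 0.051 without the first cKO-labelled library, and 2.38 ± 0.44 in atRA+PKCi, adjusted p = 0.0025). The chemokine Cxcl10, a ligand of CXCR3, was at 0 in each library of wild-type FBS, against counts of 9 and 10 in wild-type atRA+PKCi, at least 5.38-fold higher, and 4 and 2 against 12 and 10 in the cKO-labelled cultures. Cxcl9 had at most 2 counts in a group.

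Counted by medium, 17 of the 39 members rose in wild-type and 2 (Ifih1 and Irf1) fell, where 27.2% of all tested genes rose and 26.6% fell. In the cKO-labelled cultures 15 were higher and 1 (Irf1) lower, where 20.8% and 22.2% of all tested genes were. The median medium difference over all 39 with no filter was 1.05 in wild-type and 1.00 in cKO-labelled cultures on the log2 scale, beside 0 over all genes. The 12 members higher with the medium in both genotypes were Ddx58, Irf7, Usp18, Ifit2, Bst2, Ifi44, Ifi35, Parp14, Igtp, Gbp2, Psmb9 and Tap1. Ddx58, Ifit2, Bst2, Ifi44, Parp14 and Gbp2 were called higher in all 4 comparisons, and 4 tested members (Zbp1, Isg15, Oasl1 and Mx1) in none. Of the higher calls, 9 of 17 (wild-type medium), 7 of 15 (cKO-labelled medium), 13 of 20 (genotype in FBS) and 13 of 17 (genotype in atRA+PKCi) held in every fit that left out 1 library, and the same ones were called by DESeq2. Those that did not hold were Dhx58, Irf9, Ifit1, Ifit3, Oas3, Ifi44, Gbp2 and Psmb9 for the wild-type medium and Ddx58, Ifit2, Oasl2, Ifi44, Parp14, Gbp3, Gbp7 and Psmb9 for the cKO-labelled medium. By genotype they were Usp18, Ifit2, Igtp, Gbp3, Gbp7, Psmb8 and Tap1 in FBS and Irf9, Ifit2, Oasl2 and Xaf1 in atRA+PKCi. The lower calls of Ifih1 in wild-type and of Irf1 in cKO-labelled cultures did not hold either.

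**Figure D2:**
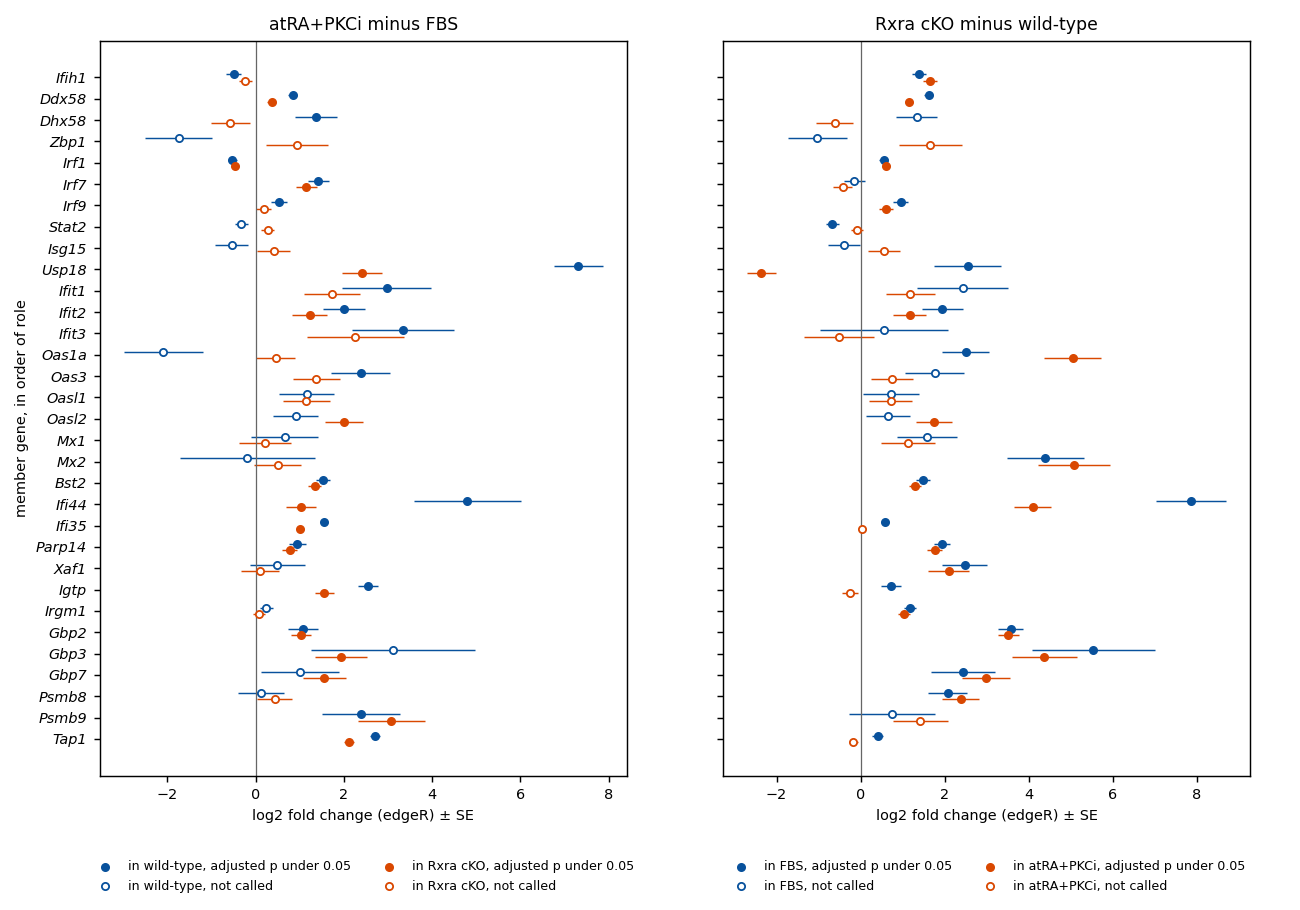
Differences of the 32 tested members on the log2 scale with their SE, atRA+PKCi minus FBS on the left and cKO-labelled minus wild-type on the right, with filled points for an adjusted p under 0.05. Most filled points lie to the right of 0, with Irf1 and Ifih1 to the left for the medium and Stat2 and Usp18 to the left for the genotype. The points of Ifi44 and Gbp3 against wild-type FBS rest on a group at 0 counts and are neither a size nor a bound.

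Where the medium difference itself was compared between the genotypes, 5 of the 39 members were called with a larger rise in wild-type and none with a smaller one, where 11.3% of all tested genes were called in the first direction and 13.3% in the second. They were Usp18 (4.91 ± 0.85, adjusted p = 0.0035), Igtp (0.99 ± 0.31, adjusted p = 0.046), Tap1 (0.59 ± 0.17, adjusted p = 0.037), Ifi35 (0.55 ± 0.12, adjusted p = 0.0096) and Ddx58 (0.48 ± 0.14, adjusted p = 0.042) by edgeR. With the mouse as a replicate block 3 were called, Igtp (adjusted p = 0.080) and Ddx58 (0.073) being lost, and DESeq2 called only Usp18. Usp18 was also the only one of the 5 that held whichever library was left out, at 8.26 without the second wild-type FBS library, which leaves it at 0 counts there. Usp18, Igtp and Tap1 were called higher by genotype in FBS as well (2.55 ± 0.81, 0.73 ± 0.24 and 0.41 ± 0.13, adjusted p = 0.032, 0.034 and 0.034), calls that ended without the first wild-type FBS library (adjusted p = 0.170, 0.113 and 0.0720). Ifi35, a protein that binds other interferon-induced factors, shows the pattern in its levels, with 10.3 and 9.5 CPM in wild-type FBS against 15.2 and 14.3 in cKO-labelled FBS (0.58 ± 0.09, adjusted p = 0.00081). In atRA+PKCi it was at 28.6 and 29.6 CPM in wild-type and at 30.5 and 29 in cKO-labelled cultures, where the ranges overlapped.

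The rest of the pathway was read from lists of its other parts. None of 14 interferon genes was expressed enough to be tested. The shares of all tested genes given above for each comparison (20.2% to 27.2% in either direction) are the background for the counts that follow. Of 6 interferon receptor chains, 5 were higher and none lower in the cKO-labelled cultures in each medium, whereas with the medium 3 were higher and 1 lower in wild-type and 3 higher and none lower in cKO-labelled cultures. Ifnar1, a chain of the type I receptor, was at 40.7 and 37.7 CPM in wild-type FBS and 60.1 and 61.8 in cKO-labelled FBS (0.64 ± 0.07, adjusted p = 0.00016). Ifngr2, a chain of the type II receptor, was at 53.2 and 56.9 CPM in wild-type atRA+PKCi and 115 and 113 in cKO-labelled atRA+PKCi (1.05 ± 0.07, adjusted p = 9.5e-06). Of Jak1, Jak2, Tyk2 and Stat3, Jak2 was called lower with the medium in both genotypes, Stat3 lower with the medium in wild-type and by genotype in FBS, and Jak1 and Tyk2 in none of the 4 comparisons. Jak2, a kinase bound to the type II receptor, was at 36 and 42.3 CPM in wild-type FBS libraries, 26.9 and 25.5 in wild-type atRA+PKCi, 42.3 and 42.7 in cKO-labelled FBS and 27.8 and 28.6 in cKO-labelled atRA+PKCi. It was lower with the medium in wild-type (−0.58 ± 0.09, adjusted p = 0.0006) and in cKO-labelled cultures (−0.59 ± 0.09, adjusted p = 0.00077).

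Among 9 negative regulators, 4 were lower and none higher in cKO-labelled FBS, and 2 were lower and 1 higher in cKO-labelled atRA+PKCi, where 20.5% of all tested genes were lower in FBS, and 20.2% lower and 23% higher in atRA+PKCi, so the atRA+PKCi counts are not above the background by more than 1 gene. With the medium 4 were lower and none higher in wild-type, and 3 lower and 2 higher in cKO-labelled cultures. Socs3, a feedback inhibitor of cytokine receptors, was at 43 and 36 CPM in wild-type FBS and 12.2 and 12.7 in cKO-labelled FBS (−1.67 ± 0.12, adjusted p = 1.7e-05). Ptpn1, a phosphatase of JAK kinases, was at 188 and 169 against 102 and 102 CPM (−0.81 ± 0.07, adjusted p = 3.9e-05). Of 8 tested sensors and adaptors upstream of interferon, 1 was higher and 4 lower with the medium in wild-type, and 2 higher and 1 lower in cKO-labelled cultures. By genotype 2 were higher and 2 lower in FBS and 3 higher and 4 lower in atRA+PKCi. The 1 that was higher with the medium in wild-type, Tlr3, the endosomal receptor for double-stranded RNA, was at 4.64 and 3.94, 17.1 and 17.5, 9.06 and 8.71, and 12.2 and 11.7 CPM. Its medium rise was larger in wild-type than in cKO-labelled cultures by 1.59 ± 0.16 (adjusted p = 0.0002).

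Of 10 other genes of MHC class I, 7 were higher in cKO-labelled FBS, 8 in cKO-labelled atRA+PKCi, and none was lower, where 22.3% and 23% of all tested genes were higher. With the medium 2 were higher and 4 lower in wild-type (median −0.30 on the log2 scale), unlike the members Tap1 and Psmb9, and 3 were higher and 1 lower in cKO-labelled cultures. Psme2, a proteasome activator subunit, was at 23.3 and 26.7 CPM in wild-type FBS and at 65 and 72.8 in cKO-labelled FBS (1.46 ± 0.09, adjusted p = 5.8e-06). H2-D1, a class I heavy chain, was at 47.4 and 46.7 CPM in wild-type atRA+PKCi and 93.9 and 95.6 in cKO-labelled atRA+PKCi (1.01 ± 0.08, adjusted p = 2.1e-05), and H2 genes share sequence, so the estimate for any 1 of them is uncertain. A further list of 42 interferon-induced genes had 27 tested, of which 17 were higher and 6 lower by genotype in FBS, 15 and 4 by genotype in atRA+PKCi, and 13 and 7 with the medium in each genotype. The lower counts, 4 to 7 of 27, lie near or below the 20.2% to 26.6% of all tested genes that were lower, and the higher counts lie above the 20.8% to 27.2% that were higher. Of 4 other tested IRF factors, none was higher and 2 lower by genotype in FBS and with the medium in wild-type, and 1 was higher and 1 lower by genotype in atRA+PKCi and with the medium in cKO-labelled cultures.

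The single-cell cultures were small, with 222 and 78 cells of mouse 1 and mouse 2 assigned to 1 hashtag, and no cell was assigned to FBS. The other conditions were B-27, atRA+PKCi, Rspo (R-spondin), BMP2/4, Rspo+BMP2/4, and Rspo+BMP2/4 with a retinoic acid receptor inhibitor (RARi). In the paper, the cultures given Rspo, BMP or RARi were also treated with atRA and PKCi. Counts were summed by mouse and condition, and 8 of the 37 members had no UMI in any condition. Only Bst2 and Ifi35 were expressed enough to be tested among 6265 genes in the 10 sums of at least 5 cells. Their calls were made at an adjusted p under 0.01 with a log2 difference over 1. Bst2 had 1 and 6 UMIs in the B-27 cultures of mouse 1 and mouse 2 (5.29 and 27.3 CPM) and was at 126 and 157 CPM with BMP2/4. It was called higher with BMP2/4 by 3.13 ± 0.72 (edgeR adjusted p = 0.00665), where 0.431% of tested genes were called higher and 5.28% lower. BMP2/4, atRA and PKCi thus differed together from B-27, and their parts in this call cannot be told apart. The B-27 sums held only 5 and 10 cells, and the call was lost on leaving out any 1 of 6 sums, with an adjusted p up to 0.176 without the B-27 sum of mouse 1.

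Ifi35 was at 21.2 and 22.8 CPM in B-27 and 41.1 and 31.3 with BMP2/4, and was not called (0.90, adjusted p = 0.378). In the other conditions Bst2 was at 139 and 145 CPM with Rspo, 90.6 and 145 with Rspo and BMP2/4 together, and 10.4 and 76.3 when the retinoic acid receptor inhibitor RARi was added to them. The last difference was −1.12 ± 0.57 and was not called (edgeR adjusted p = 0.959, unadjusted p = 0.0636), and 0% of the tested genes were called with RARi. Neither member was called for Rspo+BMP2/4 against BMP2/4, where 0% of the tested genes were called in either direction by edgeR, DESeq2 called neither member and neither had an unadjusted p under 0.05. The atRA+PKCi condition held 2 and 1 cells and was not tested, with 791 and 113 CPM over the members.

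In skin in vivo the members were read from 26795 cells, 14458 and 13915 barcodes passing filters in mouse 1 and mouse 2 before 932 and 646 doublets were removed, and 62 barcodes occurred in both libraries. Cells were clustered and classes named from markers, which gave 12 named classes from 23 of 37 clusters. The other clusters, with 3344 cells of mouse 1 and 4171 of mouse 2, stayed unnamed and enter no class. Each mouse gave 1 library, so mouse and library cannot be told apart, no test was made and the values of both are given. The cells had been sorted as CD45-, CD31-, CD140a- and CD117-, yet immune-like cells with Ptprc at 847 and 1075 CPM (here of UMIs), endothelial-like cells with Pecam1 at 1039 and 969, and fibroblast-like cells with Pdgfra at 306 and 423 were present. Immune-like cells numbered 255 and 457 in the 2 mice and endothelial-like cells 68 and 103.

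Among the 12 named classes the members were highest outside the hair lineages. Summed over 37 members, immune-like cells held 1869 and 3298 CPM in mouse 1 and mouse 2, fibroblast-like cells 1197 and 3751, endothelial-like cells 1531 and 2159, and mural-like cells (the contractile cells around vessels) 834 and 2367. Suprabasal-like keratinocytes held 594 and 602, melanocyte-like cells 319 and 551, skeletal muscle-like cells 226 and 475 and dermal papilla-like cells 261 and 402. Outer root sheath-like cells, the lineage to which bulge stem cells belong, held 174 and 276, matrix-like cells 107 and 206, inner root sheath-like cells 100 and 189, and hair shaft-like cells 78.8 and 184. The 4 highest classes overlapped each other across the 2 mice, and each of them was above every hair lineage class in both mice. The unnamed clusters together held 392 and 816 CPM. Some were in the range of the 4 highest classes, such as a cluster of 281 cells at 866 and 2597 CPM. Others were low, such as a cluster of 1486 cells at 80.1 and 168 CPM.

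**Figure D3:**
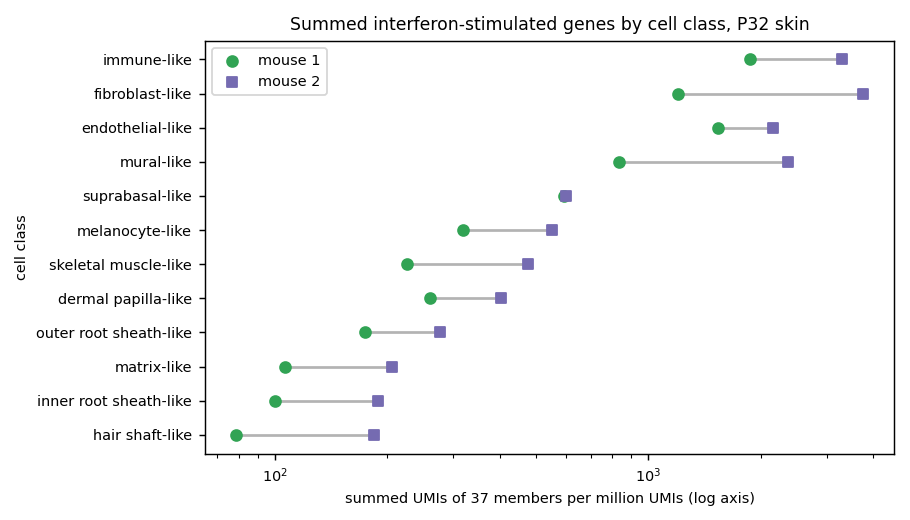
Summed CPM of 37 members in each of 12 named cell classes of P32 skin, on a log axis, with circles for mouse 1 and squares for mouse 2. Unnamed clusters are not drawn. Immune-like, fibroblast-like, endothelial-like and mural-like cells lie at 834 to 3751, and the 4 hair lineage classes at 78.8 to 276, with mouse 2 to the right of mouse 1 in each class.

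Mouse 2 was higher in 12 of the 12 named classes. The factor was 3.13 in fibroblast-like cells, where 37 of the 37 members were higher. It was 2.84 in mural-like cells, 1.76 in immune-like cells and 1.01 in suprabasal-like cells. The share of all genes that were higher in mouse 2 was not computed. In inner root sheath-like cells, where the member factor was 1.88, the fibroblast marker Col1a1 was at 426 and 767 CPM. Pi16, another such marker, was at 62.2 and 20.2 CPM there. In fibroblast-like cells themselves Col1a1 was at 10034 and 14628 CPM and Pi16 at 1629 and 509. Each marker thus moved in the same direction between the mice in both classes. In fibroblast-like cells Isg15 was at 85.9 CPM in mouse 1 and 542 in mouse 2, Bst2 at 137 and 833, Ifit3 at 24.8 and 158, Irf7 at 33.7 and 126, and Cxcl10 at 74.9 and 192. Irf1, by contrast, was at 130 and 166, and Psmb8 at 81.5 and 113. The interferon genes themselves were scarcely detected. Ifnk, the keratinocyte interferon, had 40 UMIs in all cells, Ifnb1 had 31, Ifng had 27, and the other 11 listed had at most 1. Ifnar1 was at 30.8 and 30.9 CPM in fibroblast-like cells.

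Cells in which members made up at least 1% of UMIs numbered 235, of which 206 were fibroblast-like, 18 immune-like, 4 mural-like, 1 suprabasal-like and 6 unnamed. They were 0.374% of fibroblast-like cells in mouse 1 and 4.73% in mouse 2, 0.392% and 3.72% of immune-like cells, and 0% and 1.97% of mural-like cells. After cells with at least 3000 UMIs were thinned to that depth, the shares were 0.367% and 5.36%, 0.595% and 6.12%, and 0% and 3.16%. The thinning left out 177 and 71 fibroblast-like cells. Such cells were thus about as frequent among immune-like as among fibroblast-like cells. One fibroblast-like cluster of 2300 cells, led by Bst2, Isg15, Cxcl13 and Plac8, held 4.72% of the fibroblast-like cells of mouse 1 and 52.2% of those of mouse 2. Members and pathway genes were left out of the genes used for clustering, but this cluster was picked for its leading genes, so its levels of 1420 and 4922 CPM are a description. In the 4 fibroblast-like clusters in which neither mouse held over 80% of the cells, the members came to 845 and 2467 CPM. One of these 4, of 384 cells, was also led by members (Bst2, Isg15 and Irf7 among its 10 leading genes) and stood at 1301 and 5371 CPM. In the other 3, which had no member among those genes, the level was 827 and 2332 CPM.

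By member, the named class with the highest level differed from gene to gene. Immune-like cells were highest for the sensors Ifih1, Ddx58, Dhx58 and Zbp1, for Irf7, Irf9 and Stat2, and for all of the OAS genes, for example Oas3 at 16.6 and 48.4 CPM against 0.55 and 8.17 in fibroblast-like cells. They were also highest for Usp18, Ifit2, Rsad2, Rtp4, Parp14, Xaf1, Irgm1 and Gbp3, and for the immunoproteasome subunits Psmb8 (423 and 317) and Psmb9 (133 and 137). Suprabasal-like keratinocytes came next for these 2 subunits, at 160 and 138 and at 94.7 and 65.1, and were highest for Tap1, at 64.6 and 57.7 against 53.2 and 60.5 in immune-like cells. Fibroblast-like cells were highest for Isg15, Bst2, Ifit1, Ifit3, Ifit3b, Igtp, Gbp2 and Cxcl10. Endothelial-like cells were highest for Ifi44 (54.7 and 68.7), Iigp1 (182 and 304), Ifi35 and Gbp7, and mural-like cells for Irf1 (224 and 186) and Cxcl9 (0 and 71.5). For 29 of the 37 members the ranges of the highest and the second class overlapped across the mice. Both classes come from the same mice, so a difference between the mice can make ranges overlap where the order is the same in each. Ifih1 was at 42.8 and 75.5 CPM in immune-like cells against 21.6 and 57.1 in fibroblast-like cells, the same order in both mice. For Ddx58 the order changed, with 34 and 76.3 in immune-like against 51 and 59.1 in endothelial-like cells.

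**Figure D4:**
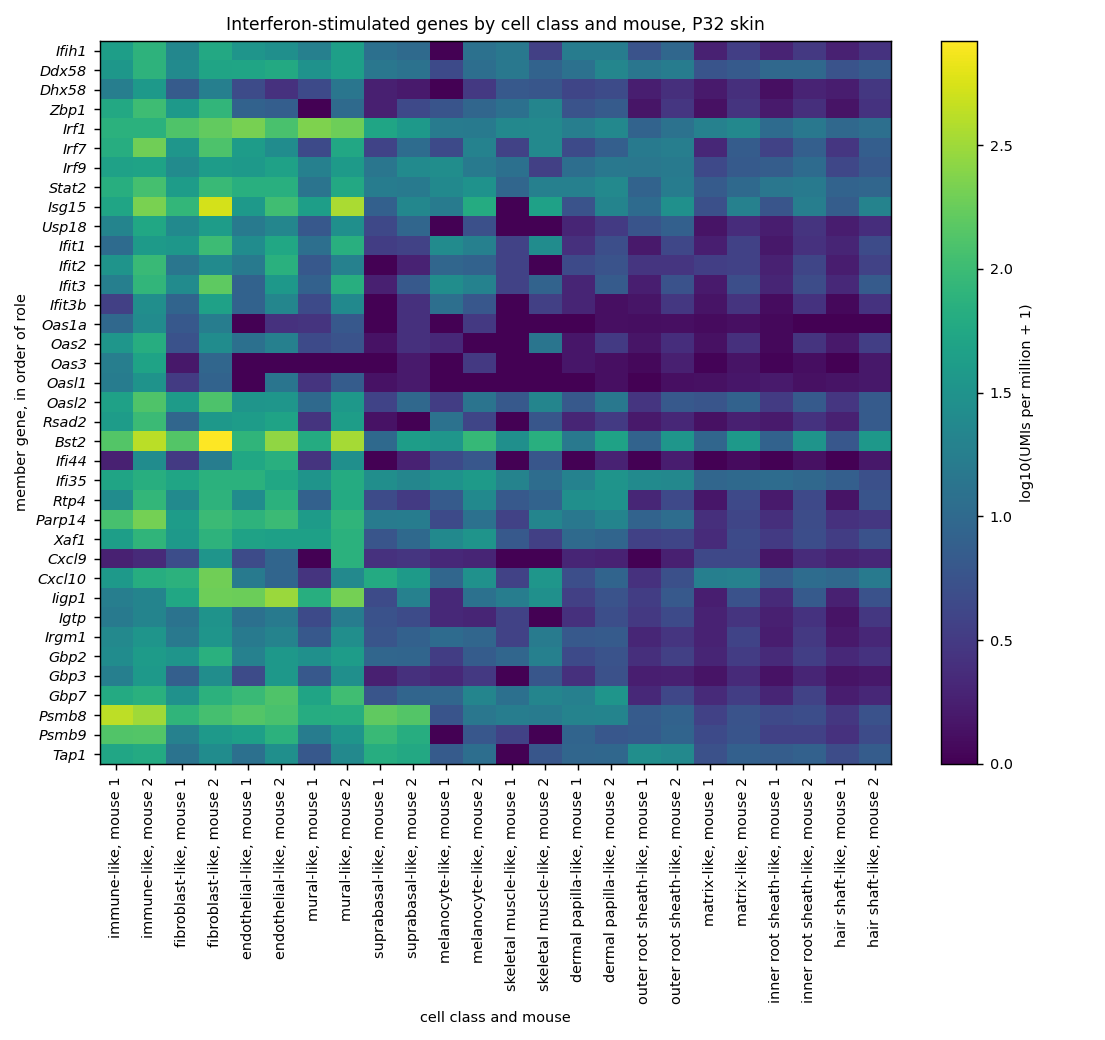
Level of each of 37 members (rows, by role) in each named cell class and mouse (columns) of P32 skin, as log10 of CPM plus 1. Bst2 and Isg15 are brightest in fibroblast-like cells of mouse 2, Psmb8 in immune-like cells and next in suprabasal-like cells, and the hair lineage columns on the right are dark for most members.

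Outer root sheath-like cells, the in vivo counterpart of the cultures by lineage, were low for most members. Free RNA from other cells adds UMIs to droplets, and Col1a2, a fibroblast collagen, stood in these cells at 3.69% and 4.62% of its level in fibroblast-like cells in mouse 1 and mouse 2. Bst2 stood there at 5.54% and 3.94% of its fibroblast-like level and Ifit3 at 3.00% and 2.79%, close to the collagen share. How much of these values came from free RNA was not tested. In 16 of 37 members the share was above that of Col1a1, Col1a2 and Dcn in both mice. That count depends on the genes chosen, since Lum, another fibroblast marker, had a larger share than these. Lum was at 66 and 133 CPM in outer root sheath-like cells against 1144 and 1511 in fibroblast-like cells. Tap1 stood at 225% and 90% (26.5 and 22.7 CPM), Ddx58 at 53.9% and 31.8% (13.1 and 16), Irf9 at 53.4% and 36.3% (13.3 and 14.8) and Ifi35 at 46.6% and 31.1% (23.7 and 22.4). In these 4 members the 2 mice were close to each other, unlike Isg15 at 9.54 and 28.6 CPM.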

How the data were processed

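Bulk values were the estimated counts per gene that the authors deposited, made with Salmon 1.4.0 on mm10 per the labels. Single-cell values were UMI counts deposited by the authors from Cell Ranger (7.0.1 per the labels, 7.0.0 per the file headers). A table of normalized counts from the authors, a signal scaled for library size, was used only for an alternative. ATAC-seq and CUT&RUN files were not used here.

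Estimated counts were rounded and tested with edgeR 4.0.16 (TMM, filterByExpr, quasi-likelihood, all 8 libraries in 1 fit) in R 4.3.3. DESeq2 1.42.0 and limma 3.58.1 (log2 of the authors' normalized counts plus 1, or plus 0.5) were alternatives, beside no filter, a stricter threshold, each library left out, only the compared libraries and the mouse as replicate block. In the genotype comparisons that block was the replicate number, which joins different animals of the 2 genotypes. Same-numbered libraries of a genotype come from the same mouse in both media per the labels, whose source field names mouse 1 or 2. Their deviations from group means correlated at 0.112 in wild-type and −0.00219 in cKO-labelled cultures over 15965 genes. With 2 mice per genotype, p-values cover the spread between these cultures.

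Cultured cells (at least 500 genes, 1000 UMIs and under 10% mitochondrial UMIs) were assigned to a hashtag with Seurat 5.3.0, hashtag doublets were dropped and UMIs were summed per mouse and condition. Skin cells passing the same filters were freed of called doublets, clustered with scanpy 1.11.5 (resolution 1) and named from markers. Intervals and floors of 3 counts cover counting error only. On simulated counts for the wild-type medium comparison the edgeR step called 64 of 100 genes changed 2-fold, 96 of 100 changed 4-fold and 2 of 15765 unchanged genes, of 15965. The simulation gave every gene the same dispersion and changed few genes, whereas 27.2% of genes rose and 26.6% fell in the data. These rates therefore need not hold for the members. Library values were given for members with a called interaction and for the 5 highest and 5 lowest called differences per comparison at a mean of at least 1 CPM. Other members were accounted for by values, counts or ranges. The members, the pathway lists and the markers were chosen with earlier results of these data known. Of the pathway lists, 1 gene is not reported here.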

Additional observations from a re-analysis of the deposited data

Results flagged for a closer look

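The rise with atRA+PKCi medium over FBS differed between wild-type and cKO-labelled cultures in 5 of the 39 members, by the edgeR test of that difference itself. Of all tested genes, 11.3% were called in that direction, so the count lies near the background, and DESeq2 called only Usp18. The excess in wild-type was 4.91 on the log2 scale for Usp18, 0.99 for Igtp, 0.59 for Tap1, 0.55 for Ifi35 and 0.48 for Ddx58. No group held more than 2 libraries, so single libraries that stood far from their group could not be looked for.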

How the results depend on the processing

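With an adjusted p under 0.01 and an absolute log2 difference over 1, higher members numbered 7 (wild-type medium), 8 (cKO-labelled medium), 11 (genotype in FBS) and 1 (medium difference between genotypes), and lower members 0 for the wild-type medium, the cKO-labelled medium and the genotype in FBS. The share of all tested genes at this threshold was not computed, so these counts cannot be set against a background. With only the compared libraries in the fit, 10 members were higher and 1 lower with the medium in wild-type. DESeq2 called 1 lower there, and limma called 4 lower at either pseudocount. For the medium difference between genotypes, DESeq2 called 1, no filter 3 higher and 1 lower, limma 2 and the replicate block 3. The block changed no other count by over 1.5 times. Besides the calls named in the report, it ended the medium calls of Dhx58 and Ifit1 in wild-type and of Ifi44, Gbp3 and Gbp7 in cKO-labelled cultures, and added Ifit3 there. Leaving out 1 library at a time gave 10 to 14 higher and 1 to 3 lower (wild-type medium), 8 to 16 and 0 to 1 (cKO-labelled medium), 15 to 20 and 1 to 1 (genotype in FBS), 13 to 18 and 1 to 1 (genotype in atRA+PKCi), 1 to 3 and 0 to 1 (medium difference between genotypes), and 0 to 1 higher and 0 lower for BMP2/4 against B-27. The causes were not tested. Over single members and alternatives, 2163 of 2431 values stayed on their side of the threshold, 238 lost a call, 30 gained one and 0 changed sign among calls. The 2431 include members without a call in the main fit, which had none to lose. They also include fits that left out a library outside the comparison, so 238 of 2431 is not the share of calls lost. The Bst2 call with BMP2/4 held with the replicate block.

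In vivo, the summed level in fibroblast-like cells over that in outer root sheath-like cells was 6.87 in mouse 1 and 13.6 in mouse 2. As a ratio of means over mice it was 7.35 without the fibroblast-like clusters that hold over 80% of their cells from 1 mouse, an alternative chosen after seeing the data. This value is not on the scale of the ratios of single mice. Without those clusters the fibroblast-like level was 845 and 2467 CPM against 1197 and 3751 with them, so the ratio was smaller in each mouse. Depth limits the low members, since 7 of 39 could not be tested in bulk and 35 of 37 in the cultured single cells.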
